A study of Mus musculus with 44 samples.

Results

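Cells of extraembryonic and of embryonic origin lie side by side in the gut endoderm of the mouse embryo, and the libraries described here compare both in the midgut at embryonic day (E) 9.5. They were chosen by their titles: 4 exMidgut libraries and 4 emMidgut libraries, 8 of the 44 bulk RNA-seq libraries of the series. The study asked how far gut cells that come from the extraembryonic endoderm keep the marks of that origin. Lineage-traced embryos were made by joining mCherry+ pre-compaction morulae (mCherry+ males crossed to CD-1 females) with GFP+ mouse embryonic stem cells, so that the embryo is built by the GFP+ cells and the extraembryonic tissues by the mCherry+ cells. exMidgut stands for EPCAM+ mCherry+ cells, that is, extraembryonic endoderm that entered the gut, and emMidgut for EPCAM+ GFP+ cells with a low mCherry signal, that is, embryonic cells that had taken up mCherry+ remnants. Both groups were wild type (WT) and came from midguts dissected from the posterior part of embryos pooled by 4, enriched for the epithelial surface protein EPCAM with magnetic beads, and sorted by fluorescence in small numbers of cells.

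Several features limit the groups as models. The GFP+ cells all derive from 1 male stem cell line of the F1G4 background, with EGFP under the CAG promoter at Rosa26, whereas the mCherry+ cells come from mice first made from a single-cell F1G4 clone that carries EF1a-mCherry on a PiggyBac transposon, then bred to C57BL/6J females, with CD-1 females as the mothers of the morulae. Origin, strain and the sex of the cells therefore change together between the groups and cannot be told apart. The emMidgut cells are those that contain extraembryonic remnants, and transcripts carried over in such remnants would count as emMidgut transcripts. Embryos were pooled, and the labels do not say whether 2 libraries of one number come from the same pool, so the p-values measure the spread between these libraries. In bulk libraries, fewer cells expressing a gene and less RNA per cell cannot be told apart.

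The visceral endoderm is the extraembryonic layer that surrounds the early embryo. It secretes serum proteins such as alpha-fetoprotein, transferrin and apolipoproteins, takes up maternal proteins through the cubilin and amnionless receptor, and later forms the endoderm of the yolk sac. Part of it intercalates with the definitive endoderm that emerges from the epiblast, and both then form the gut tube. Extraembryonic tissues also use a set of X-linked genes that the embryo proper keeps silent and that are otherwise active in testis or placenta, among them Rhox5 and Trap1a.

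Levels are given in TPM, the share of a transcript in its library corrected for length and here summed per gene, in the order of replicates 1, 2, 3 and 4. Differences are exMidgut minus emMidgut on the log2(TPM + 1) scale with their standard error (SE, n = 4 libraries in each group), which understates the change of low genes, and adjusted p-values come from limma over all genes tested. A gene was called when the adjusted p was under 0.05 and the difference above 1 in size. The 8 libraries held 4.72 to 8.66 gigabases aligned to genes, as recovered from the coverage columns, and 13222 to 13593 genes above 1 TPM. Across genes, exMidgut libraries correlated with each other at r = 0.913 to 0.925, emMidgut libraries at 0.934 to 0.941 and pairs across origin at 0.890 to 0.909, so every pair across origin lay below every pair within a group.

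Both groups carried the genes of gut endoderm at close levels. The epithelial adhesion gene Epcam stood at 996, 1029.8, 841 and 899 TPM in exMidgut and 849, 892, 793 and 791 TPM in emMidgut. The keratin Krt8 stood at 1302, 1951, 1615 and 1429 TPM and 1389.5, 1844, 1494 and 1587 TPM. The groups overlapped for both genes. The summed TPM of 14 gut endoderm markers ranged from 5869 to 6849.7 in exMidgut and from 5665 to 6818 in emMidgut (exact two-sided permutation p = 0.914), and each marker was above 1 TPM on average in both groups, with Cdx2 the only one called. The 16 tested endoderm transcription factors, among them Foxa2, Gata4, Gata6, Hnf4a and Sox17, gave no call by limma in either direction (2 at an unadjusted p under 0.05), with a median difference of 0.18 against -0.04 over all 12432 genes tested. Gata4 was lowest in replicate 1 of both groups, at 6.55, 16.6, 48.8 and 22.1 TPM in exMidgut and 1.81, 12.3, 19.4 and 21.8 TPM in emMidgut. Hnf4a, a factor of liver and gut endoderm, ran from 1.71 TPM in exMidgut replicate 1 to 35.3 TPM in replicate 3, a spread that holds the whole emMidgut range of 4.27 to 14.4 TPM.

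The reporters on which the sort was made followed the labels. mCherry transcripts stood at 7831, 5868, 7210.4 and 8273 TPM in exMidgut and at 5.29, 0, 0 and 0 TPM in emMidgut, and EGFP at 2.30, 0, 0 and 0.0374 TPM and 701, 733, 880.2 and 834 TPM. Only emMidgut replicate 1 held mCherry transcripts, and only exMidgut replicates 1 and 4 held any EGFP.

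Markers of other cell types moved with some libraries. The summed level of 9 primordial germ cell genes was 530.1, 37.2, 707 and 41.5 TPM in emMidgut against 16.5 to 48.8 TPM in exMidgut. In emMidgut replicates 1 and 3, Dppa3, a maternal and germ cell factor, was at 224 and 183 TPM and the pluripotency gene Pou5f1 at 93.6 and 131 TPM, and both were listed at 0 in emMidgut replicates 2 and 4. Of 95 named genes tested, 41 were no longer called when these 2 libraries were left out, and they are listed with the limits of the processing. The log2 differences of these 41 genes without the 2 libraries were 59.4% to 120% of those over all 8 (median 96.2%). Leaving out 1 emMidgut library at a time lost the calls of 16 to 21 of these 95 genes, and no other pair was left out. Mesenchyme markers summed to 44.4 to 105 TPM in emMidgut and 22.7 to 31.4 TPM in exMidgut, with Foxf1 and Tbx18 under 1 TPM in all 8 libraries. Without Postn, left out after the sums were seen, the other 10 markers overlapped at 11.7 to 24.6 TPM and 6.29 to 21.1 TPM (exact permutation p = 0.514). Surface ectoderm markers summed to 31.3 to 71.7 TPM in exMidgut and 15.99 to 30.7 TPM in emMidgut, with Krt5, Krt14, Tfap2a and Tfap2b under 1 TPM throughout. The full mesenchyme sum and the surface ectoderm sum separated the groups (exact permutation p = 0.0286 each, the smallest that 4 against 4 libraries allow), and so did that of 6 notochord markers (75.7 to 149 against 150.2 to 167 TPM). Shh was counted among both the notochord and the gut endoderm markers. None of 5 tested notochord and 4 tested surface ectoderm markers was called by limma (2 and 1 at an unadjusted p under 0.05). Blood, endothelial, neural and macrophage sums overlapped between the groups (exact permutation p from 0.543 to 0.914). Of 11 neural markers only 3 were tested, none was called by limma and all 3 were at an unadjusted p under 0.05. Elavl4 (-1.71 ± 0.45, adjusted p = 0.0563) and Nes (-1.44 ± 0.50, adjusted p = 0.141) had negative differences and Sox2 a positive one (1.45 ± 0.52, adjusted p = 0.157). The part of these cells in the differences below was not tested.

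Genes that mark the sex of cells differed with origin. Xist, the RNA of the inactive X chromosome, was at 113, 22.3, 46.8 and 35.3 TPM in exMidgut and 0.195, 0, 0 and 0 TPM in emMidgut. The 4 Y-linked genes Ddx3y, Kdm5d, Uty and Eif2s3y summed to 19.8, 138, 80.1 and 134.8 TPM in exMidgut. In emMidgut, whose cells come from a male line by the study's methods, they summed to 5.82, 0, 11.8 and 0.476 TPM. exMidgut libraries thus held both Xist and Y-linked transcripts, and emMidgut libraries held little of either.

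Of the 12432 protein-coding genes tested, 321 were called (2.58%), 153 of them higher in exMidgut (1.23%) and 168 lower (1.35%). These shares are the background for the counts of called list members below. Values of the groups did not overlap for 311 of the called genes, against 1281 of all genes tested (10.3%, 4.63% with exMidgut above and 5.68% with exMidgut below). Differences above 3 were seen for 33 called genes and differences below -3 for 14. When emMidgut replicates 1 and 3 were left out, 125 genes were called, 84 higher and 41 lower. Lower calls also numbered only 98 to 101 without any 1 emMidgut library, and with no filter on low values 173 genes were called in all.

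**Figure D1:**
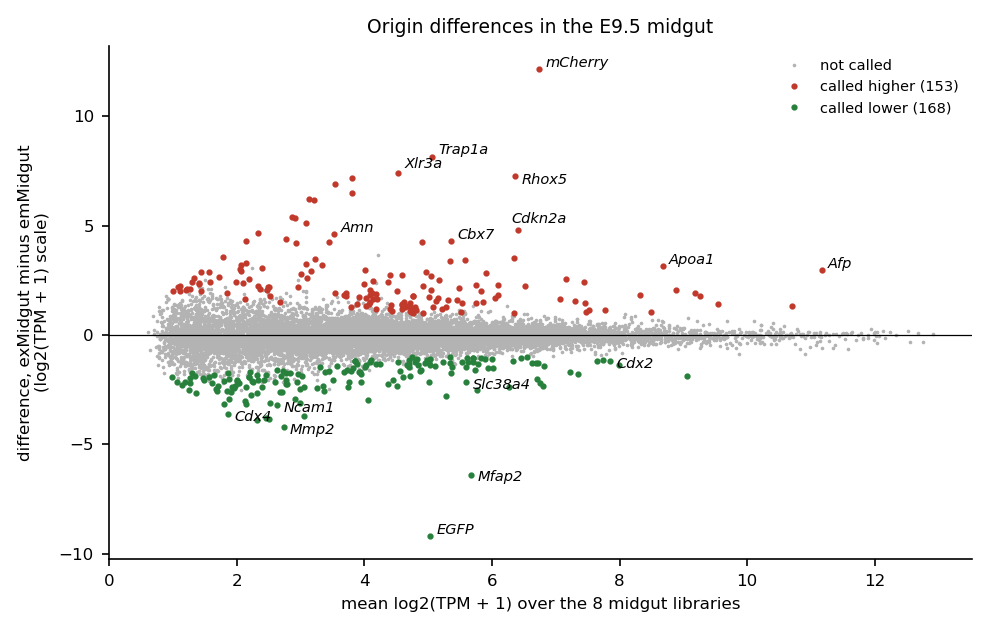
Difference between exMidgut and emMidgut (y axis, log2(TPM + 1) scale) against the mean level over the 8 midgut libraries (x axis), 1 point for each of the 12432 genes tested. Red points are the 153 genes called higher in exMidgut and green points the 168 called lower, and apart from the reporters the X-linked gene Trap1a lies farthest above 0 and the matrix gene Mfap2 farthest below.

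X-linked genes of the Xlr3, Xlr4 and Xlr5 families, which encode chromatin-associated proteins related to the synaptonemal complex protein Sycp3, made up 9 of the 15 genes with the largest positive differences (the reporter mCherry among the 15). All 9 tested members were called higher and none lower, with a median difference of 6.21. The promoters of Xlr3b, Xlr5a and Trap1a are shown as examples of X-linked genes among the 15 with the largest positive differences, with CpG dinucleotides, the sites of DNA methylation, in capitals (RefSeq, GRCm38.p6, 250 bases before to 50 after the start of the transcript, on the strand of the gene).
Xlr3b: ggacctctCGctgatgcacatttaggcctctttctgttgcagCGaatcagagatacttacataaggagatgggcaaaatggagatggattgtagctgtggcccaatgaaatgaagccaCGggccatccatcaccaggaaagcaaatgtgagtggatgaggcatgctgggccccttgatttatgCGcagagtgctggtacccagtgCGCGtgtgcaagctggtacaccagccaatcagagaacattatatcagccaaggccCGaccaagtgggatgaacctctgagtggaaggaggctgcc
Xlr5a: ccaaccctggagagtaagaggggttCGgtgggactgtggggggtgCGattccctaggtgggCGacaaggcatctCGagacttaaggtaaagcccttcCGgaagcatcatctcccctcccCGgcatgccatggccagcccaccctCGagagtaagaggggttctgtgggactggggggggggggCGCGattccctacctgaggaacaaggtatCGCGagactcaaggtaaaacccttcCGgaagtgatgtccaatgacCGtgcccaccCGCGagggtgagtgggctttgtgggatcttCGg
Trap1a: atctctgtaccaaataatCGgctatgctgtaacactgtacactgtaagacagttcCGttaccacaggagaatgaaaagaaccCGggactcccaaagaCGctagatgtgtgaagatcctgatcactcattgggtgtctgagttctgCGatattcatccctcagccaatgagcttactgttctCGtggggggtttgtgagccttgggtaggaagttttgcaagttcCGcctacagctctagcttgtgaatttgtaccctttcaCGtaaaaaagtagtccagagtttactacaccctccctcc
The window of Xlr3b on the plus strand (chrX:73191929-73192228) held 7 CpGs, that of Xlr5a on the minus strand (chrX:73117653-73117952) 16, and that of Trap1a on the plus strand (chrX:139333433-139333732) 8. Over the 32851 promoters of the table the median was 7, with quartiles of 3 and 20, so the windows of Xlr3b and Trap1a lay near the median and that of Xlr5a between it and the upper quartile.

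Xlr3a stood at 316, 301, 289 and 289.9 TPM in exMidgut and at 8.90, 0, 0 and 0 TPM in emMidgut, a difference of 7.40 ± 0.58 (adjusted p = 2.66e-06). Its 4 exMidgut values lay within a narrow range, and emMidgut replicate 1 was the only emMidgut library with any transcript. Xlr5a stood at 179.9, 167, 168 and 154 TPM and 0, 0, 0.787 and 0 TPM (7.18 ± 0.30, adjusted p = 2.12e-09), and Xlr4b at 125, 119.8, 133 and 125 TPM and 0, 0, 0.129 and 0.120 TPM (6.90 ± 0.29, adjusted p = 2.12e-09). Neither gene reached 1 TPM in any emMidgut library. The least even member was Xlr4a, with 55.9, 28.6, 122 and 29.5 TPM in exMidgut, highest in replicate 3, and 0, 0, 0 and 3.16 TPM in emMidgut. The longest identical runs between promoters of the same family ranged from 8 bases (Xlr5b and Xlr5c) to 255 bases (Xlr5a and Xlr5b), and those between families from 8 to 15 bases. How reads were shared among such related copies was not measured, so the level of a single copy is uncertain.

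Trap1a, a tumour rejection antigen gene of placenta and testis, stood at 541, 633, 556 and 513 TPM in exMidgut and 0, 0.297, 9.53 and 0.115 TPM in emMidgut, a difference of 8.15 ± 0.56 (adjusted p = 6.21e-07). Among the emMidgut libraries, only replicate 3 was above 1 TPM. Of 11 tested homeobox genes of the X-linked Rhox cluster, 2 were called higher (Rhox5 and Rhox4b) and none lower, with a median difference of 0.88. Rhox5 stood at 891, 1079.6, 1261 and 895 TPM in exMidgut and 18.6, 3.01, 24.1 and 0 TPM in emMidgut (7.26 ± 0.72, adjusted p = 3.21e-05). The 2 emMidgut libraries with germ cell genes, replicates 1 and 3, had the highest emMidgut levels of Rhox5. Rhox4b was far lower, at 6.24, 5.80, 6.62 and 8.90 TPM and 2.35, 1.91, 0.568 and 1.42 TPM (1.66 ± 0.42, adjusted p = 0.0422).

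Rhox6 and Rhox9, named after their values were seen, were not called. Rhox6 stood at 108, 143, 40.6 and 27.8 TPM in exMidgut and at 64.2, 0, 10.3 and 0 TPM in emMidgut (3.66 ± 1.05, adjusted p = 0.0744). emMidgut replicate 1 lay inside the exMidgut range and replicates 2 and 4 were listed at 0. Rhox9 stood at 11.4, 14.9, 4.84 and 0 TPM in exMidgut and 71.7, 0, 68.3 and 0 TPM in emMidgut, with both high emMidgut values in replicates 1 and 3 (difference -0.53 ± 1.33, adjusted p = 0.893). The 4 tested cancer-testis genes on the X chromosome gave 3 calls, all higher. Beside Trap1a these were Mageb16, of the melanoma antigen family, at 28.4, 26.2, 31.3 and 45.3 TPM against 1.81, 0.556, 1.26 and 0 TPM (4.22 ± 0.40, adjusted p = 2.21e-05), and Tex11, a meiosis gene, at 3.33, 7.99, 4.82 and 5.60 TPM against 0, 0, 0.0606 and 0 TPM (2.62 ± 0.46, adjusted p = 0.00471). In all, 25 of the 468 X-linked genes tested were called higher and 11 lower. X-linked genes made up 16.3% of the genes called higher, 6.55% of those called lower and 3.76% of those tested. Of the 25 called higher, 12 belonged to the Xlr, Rhox and Mage families.

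**Figure D2:**
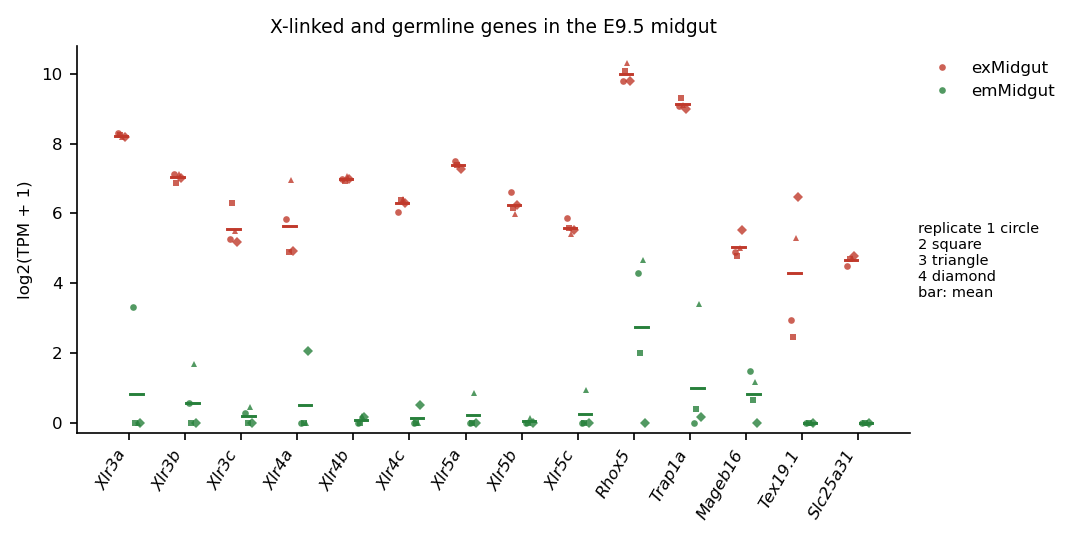
Levels (y axis, log2(TPM + 1)) of X-linked and germline genes (x axis) in the 4 exMidgut (red) and 4 emMidgut (green) libraries, with 1 symbol for each replicate and a bar at the mean. The exMidgut values of all 14 genes lie above the emMidgut values, and Tex19.1 and Slc25a31 are listed at 0 in every emMidgut library.

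On the autosomes, few germline genes were called. Slc25a31, which encodes the ADP/ATP carrier of the testis, stood at 21.5, 24.8, 25.3 and 26.2 TPM in exMidgut and was listed at 0 in all emMidgut libraries (adjusted p = 2.84e-06). Tex19.1, a germ cell and placenta gene that restrains retrotransposons, stood at 6.71, 4.50, 38.5 and 88.5 TPM in exMidgut and was likewise listed at 0 in emMidgut (adjusted p = 0.00403). The exMidgut levels of Slc25a31 were even, whereas those of Tex19.1 were high in replicates 3 and 4 and low in replicates 1 and 2. Their promoters are shown because both genes were listed at 0 in every emMidgut library, with CpGs in capitals.
Tex19.1: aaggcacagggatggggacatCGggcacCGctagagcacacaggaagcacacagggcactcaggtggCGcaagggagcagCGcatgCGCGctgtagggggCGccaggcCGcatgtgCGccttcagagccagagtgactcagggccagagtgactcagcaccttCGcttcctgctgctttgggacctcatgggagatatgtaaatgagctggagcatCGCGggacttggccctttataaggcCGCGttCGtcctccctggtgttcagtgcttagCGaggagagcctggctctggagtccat
Slc25a31: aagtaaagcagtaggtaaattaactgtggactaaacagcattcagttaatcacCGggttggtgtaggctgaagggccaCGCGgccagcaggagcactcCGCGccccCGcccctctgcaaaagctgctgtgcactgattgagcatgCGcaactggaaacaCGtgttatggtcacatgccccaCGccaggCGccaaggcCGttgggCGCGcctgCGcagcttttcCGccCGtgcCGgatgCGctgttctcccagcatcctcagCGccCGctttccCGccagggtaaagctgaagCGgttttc
The window of Tex19.1 on the plus strand (chr11:121145893-121146192) held 16 CpGs, between the median and the upper quartile of 20, and that of Slc25a31 on the plus strand (chr3:40708621-40708920) held 22, above it. Of 9 tested meiosis genes 1 was called higher and none lower. This was Rec8, a meiotic cohesin, at 17.98, 12.8, 39.7 and 32.9 TPM against 7.18, 12.1, 3.34 and 4.27 TPM (1.80 ± 0.43, adjusted p = 0.0317). None of 6 tested piRNA pathway genes and none of 8 tested primordial germ cell genes was called by limma (0 and 3 at an unadjusted p under 0.05), with medians of -0.06 and 0.07.

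Of 27 tested serum protein genes of the visceral endoderm, 14 were called higher and none lower (Afp, Ttr, Trf, Rbp4, Apoa1, Apoa2, Apoa4, Apob, Apoc1, Apoe, Fga, Fgb, Fgg and Ambp), 26 of 27 differences were positive, and the median was 1.65. Over the alternatives 8 to 16 of them were called higher. Afp, alpha-fetoprotein, stood at 4641, 7408, 8162 and 6142 TPM in exMidgut and 662, 734, 951 and 978 TPM in emMidgut, a difference of 2.97 ± 0.16 (adjusted p = 3.3e-08). It was thus abundant in both groups, and the groups lay far apart. In YsEndo, the yolk sac endoderm of the same stage, the mean of Afp was 24839 TPM (4 libraries), and exMidgut held 26.5% of it.

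Apolipoproteins, the surface proteins of lipoprotein particles, varied more between libraries. Apoa1 stood at 440.1, 1579.7, 2409.9 and 1332 TPM in exMidgut and 29.7, 183, 236 and 259.5 TPM in emMidgut (3.16 ± 0.59, adjusted p = 0.00746). Replicate 1 was the lowest library in both groups, and the groups did not overlap. Apoa2 was at 47.97, 222, 213 and 122 TPM against 7.28, 18.6, 1.24 and 5.10 TPM (4.24 ± 0.57, adjusted p = 0.00056), and Apoa4 at 14.3, 86.5, 117 and 31.02 TPM against 0.791, 0.828, 0 and 10.7 TPM (4.25 ± 0.73, adjusted p = 0.00422). Apob, the large structural protein of these particles, was at 68.3, 181, 171 and 125 TPM against 29.7, 33.5, 44.6 and 34.3 TPM (1.83 ± 0.27, adjusted p = 0.00112). For Rbp4, the carrier of retinol in blood, the groups overlapped although it was called: 1285, 3012, 4991 and 2425 TPM against 586, 1231, 1671 and 1024 TPM (1.31 ± 0.34, adjusted p = 0.0498).

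The fibrinogen chains, the clotting protein of plasma, were called together. Fgb was at 39.4, 75.5, 66.2 and 69.2 TPM in exMidgut and 5.77, 12.9, 10.3 and 6.22 TPM in emMidgut (2.72 ± 0.30, adjusted p = 0.000107), Fgg at 53.8, 95.4, 134 and 70.7 TPM and 11.1, 8.60, 18.5 and 6.61 TPM (2.89 ± 0.33, adjusted p = 0.000121), and Fga at 7.07, 39.95, 33.3 and 16.8 TPM and 2.91, 4.15, 3.05 and 0.845 TPM (2.60 ± 0.51, adjusted p = 0.0109). None of the chains overlapped between the groups. Albumin, the chief serum protein of the liver, stayed low in both, with Alb at 1.75, 2.56, 4.38 and 1.90 TPM and 0, 0.493, 0 and 3.16 TPM (adjusted p = 0.322). Promoters of liver-type serum genes often hold a site of HNF1 factors, so the letters GTTAAT, a core part of that site, were searched on both strands. They were found in 7.10% of all 32851 promoters, in 12 of the 22 serum genes with a promoter in the table (5 of them the near-identical copies Serpina1a to Serpina1e) and in 4 of the 11 called serum genes with one (Apoe, Fga, Fgb and Afp). The windows of 3 of these genes are shown with these letters in capitals, which read ATTAAC where they lie on the other strand. A match describes the letters and says nothing of binding.
Afp: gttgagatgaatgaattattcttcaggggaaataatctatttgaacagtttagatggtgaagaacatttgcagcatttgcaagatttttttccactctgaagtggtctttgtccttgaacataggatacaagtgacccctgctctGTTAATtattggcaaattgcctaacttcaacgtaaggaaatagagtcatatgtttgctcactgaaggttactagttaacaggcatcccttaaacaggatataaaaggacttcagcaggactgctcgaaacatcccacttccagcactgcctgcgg
Fga: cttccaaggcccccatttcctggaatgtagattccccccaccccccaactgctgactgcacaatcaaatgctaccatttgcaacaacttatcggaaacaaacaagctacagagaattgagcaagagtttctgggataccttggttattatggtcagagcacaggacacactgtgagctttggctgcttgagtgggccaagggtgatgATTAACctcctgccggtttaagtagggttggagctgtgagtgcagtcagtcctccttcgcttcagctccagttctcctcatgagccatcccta
Fgb: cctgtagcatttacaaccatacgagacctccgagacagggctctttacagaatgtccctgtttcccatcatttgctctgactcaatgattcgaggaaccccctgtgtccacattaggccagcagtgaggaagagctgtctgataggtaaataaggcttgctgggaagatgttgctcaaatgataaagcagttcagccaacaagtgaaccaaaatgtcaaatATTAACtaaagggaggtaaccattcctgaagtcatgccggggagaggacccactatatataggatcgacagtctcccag
They lie at chr5:90490464-90490763 (plus strand), chr3:83025903-83026202 (plus strand) and chr3:83049814-83050113 (minus strand) of GRCm38.p6.

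Some genes of the endocytic apparatus by which the visceral endoderm takes up protein were called. Of 23 tested genes 5 were called higher, against 1.23% of all genes tested, and none lower, with a median of 0.33. Over the alternatives 2 to 6 of them were called higher. Amn, amnionless, stood at 21.4, 116, 85.4 and 46.7 TPM in exMidgut and 0.855, 2.98, 3.01 and 0 TPM in emMidgut (4.62 ± 0.54, adjusted p = 0.000175). Its partner Cubn, cubilin, stood at 8.58, 29.8, 39.6 and 21.99 TPM and 3.48, 4.22, 8.17 and 4.95 TPM (1.94 ± 0.43, adjusted p = 0.0224). Both receptor genes were lowest in exMidgut replicate 1, which was still above every emMidgut library, and exMidgut held 5.26% of the YsEndo mean of Amn and 3.73% of that of Cubn. Pla2g12b was at 2.13, 46.2, 72.2 and 42.3 TPM against 1.54, 0.841, 3.94 and 1.51 TPM (3.24 ± 0.77, adjusted p = 0.0307), and there exMidgut replicate 1 lay within the emMidgut range. The protease cathepsin H, Ctsh, was at 38.02, 63.4, 56.7 and 35.1 TPM against 7.24, 13.51, 9.39 and 4.30 TPM (2.41 ± 0.33, adjusted p = 0.000691) and Fcgrt, the receptor that carries immunoglobulin G, at 51.9, 61.04, 31.6 and 32.7 TPM against 14.96, 18.4, 18.8 and 9.28 TPM (1.46 ± 0.29, adjusted p = 0.0125). The endocytic receptor Lrp2 (difference -0.42 ± 0.42, adjusted p = 0.688) and the adaptor Dab2 (0.97 ± 0.38, adjusted p = 0.205) were not called.

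**Figure D3:**
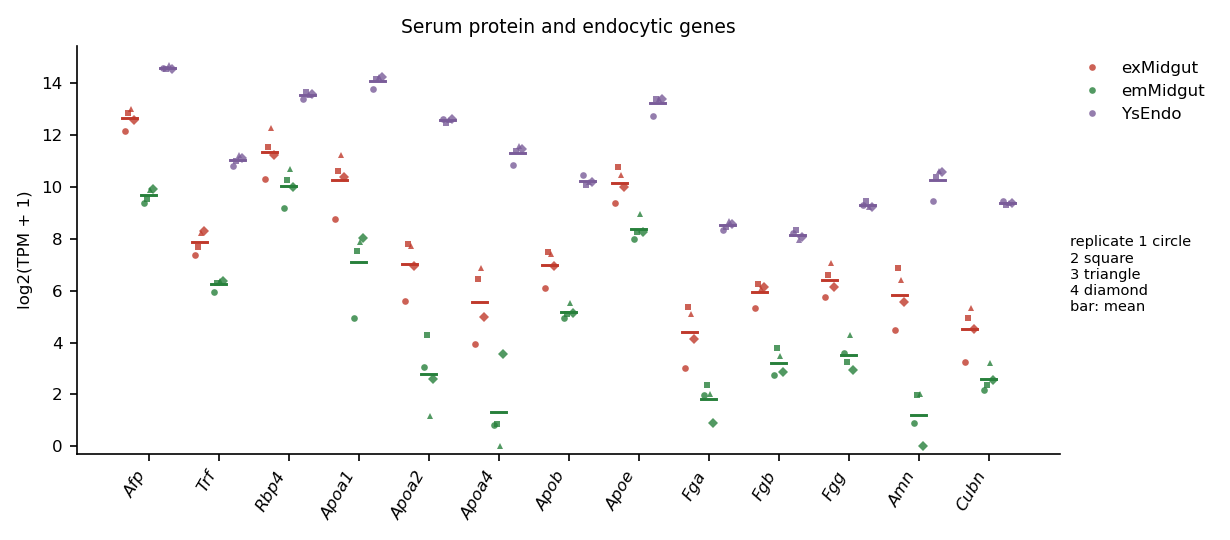
Levels (y axis, log2(TPM + 1)) of serum protein and endocytic genes (x axis) in exMidgut (red), emMidgut (green) and YsEndo (purple), 4 libraries each, with 1 symbol for each replicate and a bar at the mean. The mean of each of the 13 genes drawn rises from emMidgut over exMidgut to YsEndo, which does not hold for the called serum gene Ambp, not drawn here (means of 149.9, 346 and 107 TPM in that order).

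The summed level of 11 yolk sac endoderm markers was 7232 to 17270.3 TPM in exMidgut, 1498 to 3230 TPM in emMidgut and 63328 to 74575 TPM in YsEndo. In the hindgut of the same stage it was 123.3 to 709 TPM in exHindgut and 40.2 to 122 TPM in emHindgut. Both midgut groups were thus above both hindgut groups. Serum genes gave 4 calls of 17 tested in the hindgut, all higher, against 1.37% of all genes tested there, with a median of 0.65. Of the serum list only Trf, transferrin, the iron carrier of blood, was called in the test of origin by region, which asks whether the midgut difference departs from the hindgut difference. In the midgut Trf stood at 165, 204, 296 and 319 TPM in exMidgut and 61.7, 77.6, 81.2 and 81.7 TPM in emMidgut (1.65 ± 0.20, adjusted p = 0.000194). Its hindgut difference was -0.54 (adjusted p = 0.405), and the region term was 2.19 ± 0.41 (adjusted p = 0.0379), a call lost in 15 of 25 alternatives. For Amn the midgut and hindgut differences were 4.62 and 0.83, and the region term of 3.79 ± 0.81 did not pass (adjusted p = 0.0838).

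Inhibitors of the cell cycle and a Polycomb subunit were among the sharpest autosomal differences. Cdkn2a, the locus of p16 and p19Arf, stood at 405, 381, 463 and 547 TPM in exMidgut and 17.4, 8.44, 13.8 and 24.7 TPM in emMidgut (4.80 ± 0.25, adjusted p = 2.7e-08). Its neighbour Cdkn2b, which encodes p15, stood at 57.7, 37.5, 35.3 and 50.9 TPM and 7.07, 5.14, 2.40 and 5.56 TPM (2.98 ± 0.32, adjusted p = 9.09e-05). Neither gene overlapped between the groups. The other 4 tested inhibitors were not called, among them Cdkn1a, which encodes p21, at 238, 225, 378 and 279 TPM against 181, 215, 200.4 and 223 TPM (0.42 ± 0.15, adjusted p = 0.174), whose values did not overlap. Cbx7, a chromodomain subunit of Polycomb repressive complex 1, stood at 205, 152, 183 and 187 TPM in exMidgut and 5.57, 7.26, 9.98 and 11.8 TPM in emMidgut (4.28 ± 0.23, adjusted p = 3.3e-08). It was the only one of 26 tested Polycomb genes to be called, while the methyltransferase Ezh2 (-0.26 ± 0.20, adjusted p = 0.581), Bmi1 (0.79 ± 0.46, adjusted p = 0.422) and the related subunit Cbx2 (-0.53 ± 0.34, adjusted p = 0.48) were not.

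Some targets of p53 were called higher. Of 30 tested targets 8 were called higher (Ccng1, Phlda3, Trp53inp1, Tnfrsf10b, Eda2r, Btg2, Plk2 and Dcxr) and none lower. Of all genes tested 1.23% were called higher. Of the 30 differences 23 were positive and the median was 0.48. Without emMidgut replicates 1 and 3 the calls of Tnfrsf10b, Plk2 and Dcxr were lost, at differences of 1.23, 0.60 and 0.89. The list was drawn with earlier results of these libraries known, so that it is no independent evidence of the direction. Phlda3, an inhibitor of Akt signalling, stood at 59.7, 83.4, 63.7 and 55.3 TPM in exMidgut and 16.6, 7.47, 9.92 and 21.6 TPM in emMidgut (2.25 ± 0.30, adjusted p = 0.000511). Ccng1, cyclin G1, stood at 78.7, 114, 63.01 and 135.2 TPM and 16.2, 14.6, 21.5 and 33.4 TPM (2.15 ± 0.29, adjusted p = 0.000523), and the death receptor gene Eda2r at 24.02, 33.1, 11.3 and 17.97 TPM and 4.44, 2.38, 1.90 and 0.667 TPM (2.78 ± 0.44, adjusted p = 0.00258). All values of these genes were apart. Mdm2, the ubiquitin ligase of p53, overlapped at 43.5, 59.8, 41.5 and 55.96 TPM against 49.6, 49.3, 44.2 and 26.4 TPM (0.26 ± 0.23, adjusted p = 0.631). Trp53 itself stood at 184, 136, 141 and 171 TPM and 186, 232, 169.9 and 212 TPM, and the groups overlapped (-0.34 ± 0.14, adjusted p = 0.252). In the hindgut 15 of 30 targets were called, all higher, against 1.37% of all genes tested there. None of 25 tested apoptosis genes was called by limma in the midgut (6 at an unadjusted p under 0.05), where the median was -0.01.

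**Figure D4:**
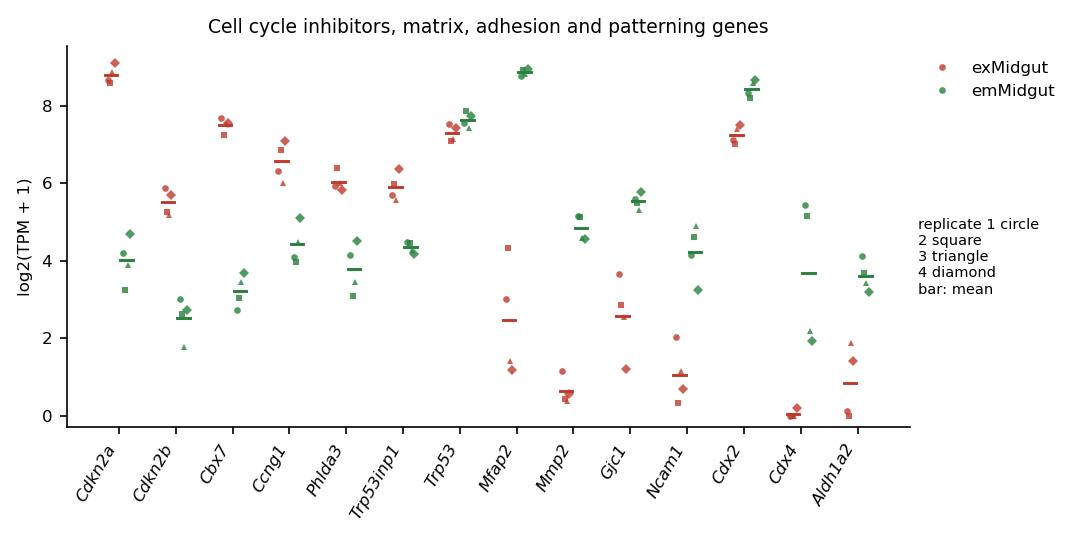
Levels (y axis, log2(TPM + 1)) of cell cycle inhibitors, Cbx7, p53 targets, Trp53, matrix, junction, adhesion and patterning genes (x axis) in the 4 exMidgut (red) and 4 emMidgut (green) libraries, with 1 symbol for each replicate and a bar at the mean. Cdkn2a, Cdkn2b and Cbx7 are higher in exMidgut with little spread, Trp53 overlaps, and Mfap2 is the farthest below in exMidgut.

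A few imprinted genes, expressed from the copy of 1 parent, were called, in both directions. Of 22 tested paternally expressed genes 3 were called higher and 2 lower. Of 13 maternally expressed genes none was called higher and 1 lower (Tssc4). Over all genes tested 1.23% were called higher and 1.35% lower. Gab1, an adaptor of growth factor receptors, stood at 40.9, 50.7, 47.2 and 27.9 TPM in exMidgut and 12.8, 13.6, 12.5 and 15.6 TPM in emMidgut (1.52 ± 0.25, adjusted p = 0.00333), and Jade1, a subunit of a histone acetyltransferase complex, at 64.3, 82.1, 57.2 and 72.8 TPM and 16.9, 22.1, 21.3 and 27.7 TPM (1.61 ± 0.21, adjusted p = 0.000458). Nnat, neuronatin, stood at 29.4, 7.99, 12.2 and 13.9 TPM and 0, 0.354, 0.800 and 3.56 TPM (3.06 ± 0.53, adjusted p = 0.00467). Each was higher in exMidgut with no overlap. In the other direction, Slc38a4, an amino acid transporter, stood at 32.6, 27.3, 15.4 and 16.6 TPM in exMidgut and 82.7, 106, 97.8 and 123.1 TPM in emMidgut (-2.16 ± 0.25, adjusted p = 0.000125). Snrpn, a splicing protein, stood at 81.9, 62.1, 54.7 and 72.3 TPM and 168, 165, 149.7 and 176 TPM (-1.28 ± 0.15, adjusted p = 0.000206), and its region term was -0.99 ± 0.19 (adjusted p = 0.0379), a call lost in 18 of 25 alternatives. Its hindgut difference was -0.29. The growth factor gene Igf2 was at 134.6, 182, 182 and 129.8 TPM against 202, 173, 172 and 204 TPM and was not called (-0.27 ± 0.15, adjusted p = 0.396).

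The non-coding RNA H19, which neighbours Igf2, was outside the test of protein-coding genes and was looked at after its values were seen. H19 stood at 740.3, 1108, 1181 and 784 TPM in exMidgut and at 5.82, 3.05, 119 and 138 TPM in emMidgut, a difference of 5.16 ± 0.89 in the fit over all gene types (adjusted p = 0.00443). The exMidgut libraries were all high, emMidgut replicates 3 and 4 were intermediate and replicates 1 and 2 were low. In YsEndo the mean of H19 was 774 TPM.

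Apart from the reporter EGFP, the largest negative differences were those of Mfap2 and Mmp2. Mfap2, a component of elastin-associated microfibrils, stood at 6.996, 19.19, 1.65 and 1.25 TPM in exMidgut and 431, 481, 452 and 493 TPM in emMidgut (-6.38 ± 0.51, adjusted p = 2.85e-06). It was the only one of 14 tested microfibril genes to be called, and the list had a median of 0.00. Mmp2, a gelatinase, stood at 1.24, 0.336, 0.303 and 0.461 TPM and 34.4, 33.6, 22.98 and 22.4 TPM (-4.22 ± 0.38, adjusted p = 1.01e-05), the only call among 21 tested matrix proteases and inhibitors. Gjc1, connexin 45 of gap junctions, stood at 11.6, 6.29, 4.82 and 1.32 TPM and 47.2, 43.7, 38.3 and 53.3 TPM (-2.96 ± 0.42, adjusted p = 0.000911). Of 17 tested collagens Col4a5 (-1.62 ± 0.38, adjusted p = 0.0304) and Col22a1 (-1.69 ± 0.43, adjusted p = 0.0456) were called lower, while the main basement membrane chain Col4a1 was not (-0.43 ± 0.16, adjusted p = 0.189).

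Acta1, Actc1 and Stmn2 were also among the 15 genes with the largest negative differences. Acta1, skeletal muscle actin, stood at 3.87, 0, 0 and 0 TPM against 21.6, 8.203, 44.2 and 17.3 TPM (-3.78 ± 0.60, adjusted p = 0.0025). Actc1, cardiac actin, stood at 0.0202, 0.367, 9.62 and 0.825 TPM against 9.85, 65.5, 39.4 and 26.99 TPM (-3.72 ± 0.69, adjusted p = 0.0073), with exMidgut replicate 3 just under emMidgut replicate 1. Ndufa4l2, Cdx4, Ncam1, Car3, Armcx6, Sult5a1, Them7 and Phactr3 were others of these 15. Stmn2, a microtubule regulator of neurons, stood at 0, 0, 3.90 and 0 TPM against 10.3, 13.96, 22.4 and 53.5 TPM (-3.86 ± 0.61, adjusted p = 0.00233). Postn, which mesenchymal cells secrete, stood at 15.7, 4.70, 16.4 and 14.4 TPM against 44.5, 19.8, 59.95 and 86.1 TPM (-1.91 ± 0.44, adjusted p = 0.0249). It was the only one of 5 tested mesenchyme markers to be called, and 2 of the 5 differences were positive (median -0.28). The part of mesenchymal cells in these differences was not tested.

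Of 24 tested adhesion molecules of neural type 4 were called lower and 1 higher, with a median of -0.25. None of these 5 was called without emMidgut replicates 1 and 3, where their log2 differences were 88.0% to 101% of those over all 8 libraries, and over the alternatives 0 to 5 members were called lower. Ncam1, the neural cell adhesion molecule, stood at 3.06, 0.245, 1.23 and 0.607 TPM in exMidgut and 16.8, 23.6, 28.8 and 8.46 TPM in emMidgut (-3.18 ± 0.48, adjusted p = 0.00167). Slitrk6 stood at 1.62, 2.58, 2.85 and 1.72 TPM and 11.2, 12.9, 18.99 and 14.4 TPM (-2.26 ± 0.36, adjusted p = 0.00273). Alcam, an adhesion molecule also found on epithelia, went the other way at 27.1, 18.05, 46.5 and 41.4 TPM against 5.16, 7.40, 11.1 and 9.41 TPM (1.84 ± 0.34, adjusted p = 0.00771). Cadm3 and Nrcam, the other lower members, did not reach 1 TPM in any exMidgut library. None of 47 tested axon guidance ligands and receptors was called in either direction by limma (7 at an unadjusted p under 0.05, median -0.16). Among 37 tested junction, keratin and polarity genes Cldn2, a claudin that forms cation pores, was called higher at 13.98, 76.6, 65.9 and 35.2 TPM against 2.52, 9.15, 12.5 and 5.60 TPM (2.45 ± 0.51, adjusted p = 0.015) and Cldn9 lower at 28.3, 19.15, 33.5 and 34.3 TPM against 127, 93.5, 68.4 and 49.4 TPM (-1.47 ± 0.28, adjusted p = 0.00821).

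Regional identity differed in a few regulators of the posterior gut. Of 14 tested regional factors 3 were called lower and none higher (median -0.35). Cdx2, the caudal homeobox factor that specifies intestine, stood at 137, 127, 167 and 179.9 TPM in exMidgut and 320.1, 293, 384 and 401 TPM in emMidgut (-1.19 ± 0.15, adjusted p = 0.000241). All exMidgut values were below all emMidgut values, while Cdx2 remained abundant in both groups. The hindgut difference of Cdx2 was -0.16 (adjusted p = 0.626), and the region term of -1.03 ± 0.22 did not pass (adjusted p = 0.0793). Cdx4, a caudal factor of posterior tissue, was listed at 0 in 3 exMidgut libraries and at 0.147 TPM in the other, against 42.6, 34.4, 3.57 and 2.83 TPM in emMidgut (-3.63 ± 0.73, adjusted p = 0.0121), high in emMidgut replicates 1 and 2 and low in 3 and 4. Of 30 tested Hox genes only Hoxb5 was called, lower in exMidgut at 0.604, 0.143, 0.0240 and 0.698 TPM against 5.42, 4.90, 3.52 and 2.17 TPM (-1.85 ± 0.47, adjusted p = 0.044). Aldh1a2, which makes retinoic acid, was the only call among 15 retinoic acid pathway genes, at 0.0803, 0, 2.67 and 1.66 TPM against 16.2, 11.8, 9.76 and 8.203 TPM (-2.75 ± 0.50, adjusted p = 0.00646).

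Signalling and housekeeping lists were read against the 2.58% of all genes that were called, and a count near that share is no result about a list. None of 30 tested Wnt, 28 BMP and TGF-beta, 12 Hedgehog and 12 Notch pathway genes was called by limma, and neither was any of 16 tested DNA methylation and demethylation genes or 80 ribosomal protein genes. At an unadjusted p under 0.05 these lists held 5, 6, 1, 0, 4 and 12 genes in that order. Cholesterol synthesis genes had a median of -0.73 with 20 of 22 below 0 and 3 called lower, Idi1, Sqle and Msmo1, of which Msmo1 stood at 34.5, 31.02, 18.7 and 34.2 TPM against 84.6, 79.6, 59.8 and 59.9 TPM (-1.26 ± 0.23, adjusted p = 0.00678). Proliferation genes had a median of -0.54 with 26 of 30 below 0. Rrm2, a subunit of ribonucleotide reductase, was the only one called, at 101, 61.03, 28.2 and 86.96 TPM against 162, 191, 126 and 137 TPM (-1.27 ± 0.30, adjusted p = 0.0327). Mki67, a marker of cycling cells, stood at 28.4, 10.8, 8.64 and 15.4 TPM against 27.3, 34.9, 25.8 and 22.3 TPM, with only exMidgut replicate 1 inside the emMidgut range (-0.88 ± 0.33, adjusted p = 0.187). Glycolysis genes had a median of -0.43 with 18 of 21 below 0 and 1 call, Pfkp (-2.32 ± 0.53, adjusted p = 0.0253). Respiratory chain genes had a median of 0.00 over 75 genes and 1 call, Cox6b2, a testis form of a cytochrome c oxidase subunit, at 78.4, 54.6, 60.7 and 77.2 TPM against 47.1, 9.77, 12.8 and 8.48 TPM (2.07 ± 0.41, adjusted p = 0.0103). Of 13 immediate early genes, which respond within minutes to stimuli, Fos was called higher, with overlapping values of 166, 89.8, 213 and 61.3 TPM against 37.2, 20.2, 66.5 and 32.9 TPM (1.69 ± 0.38, adjusted p = 0.0216). The call of Fos was lost in 6 of 19 alternatives, with an adjusted p of up to 0.162.

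**Figure D5:**
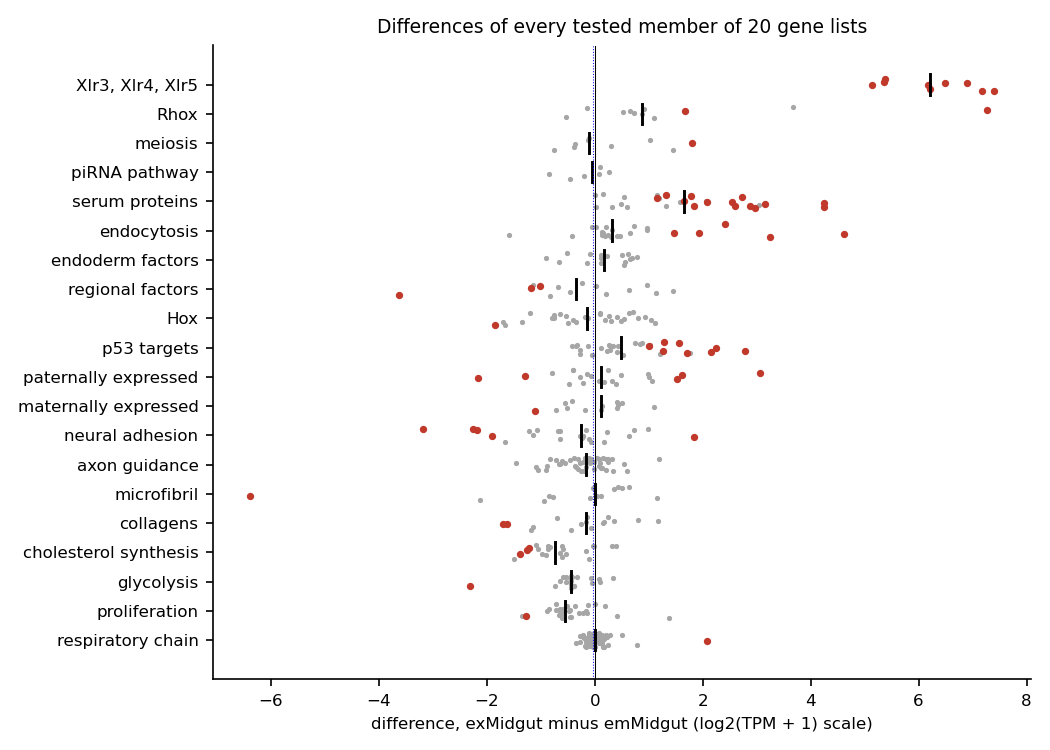
Differences between exMidgut and emMidgut (x axis, log2(TPM + 1) scale) for every tested member of 20 gene lists (y axis). Red points were called, grey points were not, black ticks mark the list medians and the dotted line the median of all genes (-0.04), and the Xlr genes and serum proteins stand out by their medians of 6.21 and 1.65.

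The midgut calls were then looked up in 3 comparisons that share no library with them. The labels do not say whether midgut and hindgut libraries share embryos. Strain changes together with origin in all 3 comparisons too, so a difference due to strain could recur in them. In the hindgut 3.07% of all genes tested were called. Of the 153 genes higher in exMidgut 125 were tested in the hindgut, where 71 were called higher (56.8%, against 1.37% of all genes tested) and none lower. Of the 168 genes lower in exMidgut 154 were tested there, and 66 were called lower (42.9%, against 1.7%) and none higher. Trap1a, Rhox5, Cdkn2a and Cbx7 had hindgut differences of 8.77, 8.58, 6.44 and 5.39, and Mfap2 one of -6.07.

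The test of origin by region gave 13 calls among 13473 genes (0.0965%, 0.052% higher), of which 5 were also called in the midgut. With a pseudocount of 0.1 no gene was called by limma (1008 at an unadjusted p under 0.05), and with 1 library left out 3 to 19 were. Beside Trf and Snrpn the 5 genes were Sycn, Rgn and Stmn2. The call of Rgn was lost in 1 of 25 alternatives (adjusted p = 0.0574 with the pseudocount of 0.1), those of Sycn, Snrpn and Stmn2 in 13, 18 and 19. Sycn, a protein of zymogen granules in the pancreas, stood at 349, 200.3, 567 and 372 TPM in exMidgut and 34.4, 44.2, 65.2 and 113 TPM in emMidgut (2.57 ± 0.33, adjusted p = 0.000405). It was listed at 0 in all exHindgut libraries, had a mean of 0.889 TPM in emHindgut and was too low in the hindgut to be tested there. Rgn, regucalcin, stood at 29.1, 29.3, 47.99 and 46.7 TPM and 109, 106, 104 and 119 TPM (-1.53 ± 0.20, adjusted p = 0.000405), with a hindgut difference of 1.35 and a region term of -2.88 ± 0.43 (adjusted p = 0.00651). Stmn2 was likewise too low in the hindgut to be tested there, so that its region term of -3.85 restates its midgut difference of -3.86. The region term of Sycn was 3.27 against a midgut difference of 2.57, with hindgut levels too low to be tested.

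At E6.5, the progenitors of both lineages were represented by exEndo1, the distal extraembryonic endoderm, and Epi, the epiblast, with 4 libraries each. The protocol text given for the Epi libraries names EmVE tissue, whereas their title and tissue label say epiblast. EGFP had a mean of 385 TPM and mCherry one of 0.229 TPM in Epi, against 7.68 and 3601 TPM in exEndo1. There, 103 of 126 tested midgut-higher genes were called higher in exEndo1 (81.7%, against 19.8% of all genes) and 3 lower, and 101 of 138 tested midgut-lower genes were called lower (73.2%, against 13.6%) and 7 higher. Afp had an E6.5 difference of 10.70 against 2.97 in the midgut, and Amn one of 9.07 against 4.62. Slc25a31 had one of 0.84 (adjusted p = 0.0765), which did not pass, and Cdx2 one of 3.73 (adjusted p = 1.23e-06) against -1.19, so that Cdx2 was higher in the extraembryonic progenitor and lower in the extraembryonic midgut. Phlda3 had one of -0.87 (adjusted p = 0.0608) and Ccng1 one of 0.01 (adjusted p = 0.972), neither of which passed.

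At E13.5, the small intestine was represented by 3 exSI and 3 emSI libraries, of which the exSI libraries are labelled Trp53 KO, so that origin and genotype cannot be told apart. Trp53 transcripts were at 33.4 to 167 TPM in the exSI libraries and at 158 to 201 TPM in emSI, and the groups overlapped (-1.01, adjusted p = 0.488), so that the level of Trp53 does not by itself show the labelled genotype. Of all genes tested 0.738% were called. Of 125 tested midgut-higher genes 32 were called higher there (25.6%, against 0.51% of all genes) and 1 lower, and of 129 tested midgut-lower genes 8 were called lower (6.20%, against 0.229%) and 1 higher. The Trap1a and Rhox5 differences were 9.23 and 10.25. Ccng1 and Phlda3, the p53 targets with the smallest adjusted p in the midgut, had E13.5 differences of -1.03 (adjusted p = 0.512) and -4.60 (adjusted p = 0.0376). Of the 8 targets called in the midgut 7 were tested at E13.5, where 4 differences were above 0, the highest that of Trp53inp1 (2.14, adjusted p = 0.206), and 3 below. The gene lower at E13.5 and higher in the midgut was thus Phlda3.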

How the data were processed

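The deposited series holds 44 tables, 1 for each library, with TPM, FPKM and coverage per gene entry. According to the methods and the submitters' processing notes, libraries were made from small numbers of sorted cells by a low-input poly(A) protocol, trimmed with cutadapt 4.1, aligned with STAR 2.7.9a to mm10 with the reporter sequences added, and quantified by StringTie 2.0.6. The TPM values deposited by the authors are relative to the library (they sum to 1000000), the FPKM values of the authors are scaled to transcript length and library size, and the authors' coverage is the mean depth over each gene. Counts are not used here, so limma (3.58.1 in R 4.3.3) took the place of the study's DESeq2.

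TPM were summed per gene ID. Gene types came from GENCODE vM21 (32235 of 32287 gene IDs matched), and protein-coding genes outside the Y chromosome with TPM above 1 in at least 4 of the 8 libraries (at least 3 of 6 at E13.5) were tested on log2(TPM + 1) with lmFit and eBayes (trend), two-sided, with Benjamini-Hochberg adjustment. Calls needed adjusted p below 0.05 and a difference larger than 1 in size (origin by region: no limit on size). At an unadjusted p under 0.05 the midgut gave 2054 genes. Single values were compared by exact two-sided permutation over libraries. The fit was checked on simulated data.

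Aligned gigabases were taken from the ratio of coverage to FPKM. TPM keep no read counts, so counting error per gene is unknown. Strand is not stated to be kept, so overlapping antisense genes cannot be told apart. The members and gene lists were chosen with earlier results of these data known. Named genes were the 15 called genes with the largest positive and the 15 with the largest negative difference and no overlap, called members of the lists, up to 5 first members of each list described, genes called for both origin and region, the reporters, Xist and Trp53. Rhox6, Rhox9, H19, Dppa3, Alb, Bmi1, Cbx2, Lrp2, Dab2, Igf2, Mki67, Col4a1 and the genes of the closing section were named after their values were seen where that rule does not take them. Promoters came from RefSeq (GRCm38.p6), and 22 of 27 tested serum genes matched. CpG content over all called genes was not compared, because under 80% of them had a promoter in the table. A called gene of the regional list is not reported here by name.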

Additional observations from a re-analysis of the deposited data

Results flagged for a closer look

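Among 74 groups of 4 values examined for a library far from the other 3, 7 stood out. Chance flags about 1 in 20 such groups. emMidgut replicate 1 was the library apart for mCherry (5.29 TPM), Xlr3a (8.90 TPM) and the sum of the neural markers (25.9 TPM). emMidgut replicate 3 was apart for Trap1a (9.53 TPM). exMidgut replicate 3 was apart for Actc1 (9.62 TPM), and exMidgut replicate 2 for Sult5a1 (10.0 TPM) and the sum of the endothelial markers (6.26 TPM).

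The test of origin by region, in which a positive value means a larger exMidgut minus emMidgut difference in the midgut than in the hindgut, gave 13 genes. Higher values were seen for Hoxb1 (5.04), Nkd2 (4.41), Cdh11 (3.76), Hoxd12 (3.27), Sycn (3.27), Trf (2.19) and Clu (1.46), and lower values for Fgl1 (-4.05), Stmn2 (-3.85), Abhd12b (-3.48), Rgn (-2.88), Ak1 (-1.53) and Snrpn (-0.99). Hoxb1, Hoxd12, Cdh11 and Abhd12b did not pass the filter on low values in the midgut.

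Outside the tested protein-coding genes, H19 averaged 953 TPM in exMidgut and the 4 Y-linked genes summed to 93.2 TPM on average, both above every emMidgut library (exact permutation p = 0.0286 each, the smallest 4 against 4 libraries allow). What lies behind the low Y-linked levels of emMidgut, which comes from a male line, was not tested.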

How the results depend on the processing

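Of the 95 named genes tested, none changed direction in any alternative, and 44 kept their side of the threshold in every one. The calls in the midgut (321; 153 higher, 168 lower) became 173 with no filter on low values (87 higher, 86 lower), 509 when all 16 E9.5 gut libraries shared 1 spread (288 lower) and 125 without emMidgut replicates 1 and 3 (84 higher, 41 lower). Of these, 144, 299 and 116 were among the 321. Leaving out 1 library gave 216 to 388 calls, 116 to 168 higher and 98 to 220 lower, the most without exMidgut replicate 1, and lower calls were 98 to 101 without any 1 emMidgut library. The hindgut gave 223 calls with no filter and 252 to 359 with 1 library left out. Origin by region gave 13 calls, 0 by limma with a pseudocount of 0.1 (1008 at an unadjusted p under 0.05), 8 with no filter, 8 without the trend, 8 with the replicate block and 3 to 19 with 1 library left out. Lower genes called at E6.5 numbered 60 with a mean TPM above 5 and 98 to 103 with 1 library left out, and higher ones 102 to 106. At E13.5, higher genes called numbered 7 with no filter, 17 without the trend and 21 to 28 with 1 library left out, and lower ones 0 by limma (49 at an unadjusted p under 0.05), 3 and 5 to 8. With the replicate block the midgut gave 333 calls (288 shared). Same-numbered libraries deviated together at r = 0.0127 to 0.0798, and 3 of 4 exMidgut and 3 of 4 emMidgut libraries were closest to their own number. Among the lists, serum calls ran from 8 to 16, p53 targets from 5 to 10, Hox from 0 to 5, and Xlr stayed at 9. Without emMidgut replicates 1 and 3, where fewer libraries entered, 41 named genes were no longer called: Acta1, Alcam, Aldh1a2, Ambp, Anxa1, Apoa4, Armcx6, Cadm3, Cdh16, Cdx4, Cldn2, Cldn9, Col22a1, Col4a5, Cubn, Dcxr, Fcgrt, Fga, Gab1, Hoxb5, Idi1, Msmo1, Ncam1, Nnat, Nrcam, Pfkp, Pla2g12b, Plk2, Postn, Rbp4, Rec8, Rhox4b, Rrm2, Slitrk6, Sqle, Sult5a1, Tex11, Tex19.1, Them7, Tnfrsf10b and Tssc4. The calls of 10 more named genes were lost only in other alternatives, among them Actc1, Apoa1, Apoe, Cox6b2, Fos and Stmn2 with no filter and Slc38a4, Spink1 and Ttr with 1 spread over 16 libraries. A gene listed at 0 may be present below detection.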

Other observations

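Gene groups outside the lists were looked at after the calls were seen, and are given as values. Of 12 tested H2A genes of the replication-dependent histone cluster on chromosome 13, 8 were called lower in exMidgut and none higher. Over all genes tested 1.35% were called lower and 1.23% higher. The median difference of the 12 genes was -1.73, against -0.04 over all genes. Hist1h2ah stood at 26.5, 18.6, 5.91 and 13.9 TPM in exMidgut and 46.4, 67.6, 70.1 and 88.3 TPM in emMidgut (-2.14 ± 0.36, adjusted p = 0.00372). Of 13 H2B genes 1 was called higher and 1 lower, and the 57 tested Hist genes had a median of -0.97. The 30 proliferation genes had a median of -0.54, and their part in the histone levels was not tested. The libraries were made from poly(A)+ RNA, and what share of the histone RNA they captured was not measured. The values therefore do not give total histone RNA.

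A few more called genes are given by their values, picked after the calls were seen and standing for no group. Hpx, hemopexin, the haem carrier of plasma, stood at 84.7, 143, 327 and 126 TPM against 40.7, 27.4, 33.9 and 20.8 TPM (2.29 ± 0.33, adjusted p = 0.00102), and its YsEndo mean was 2.14 TPM. Igfbp1, a carrier of insulin-like growth factors, stood at 13.3, 13.2, 4.40 and 5.46 TPM against 2.67, 0.324, 0 and 0.841 TPM (2.41 ± 0.53, adjusted p = 0.0204), and Lipc, hepatic lipase, at 20.4, 31.98, 24.1 and 40.7 TPM against 8.51, 7.29, 9.42 and 7.34 TPM (1.69 ± 0.29, adjusted p = 0.0045). Fabp1, a fatty acid carrier of liver and intestine, was lower, and stood at 21.1, 38.4, 23.2 and 62.2 TPM against 122, 192, 161 and 249 TPM (-2.37 ± 0.30, adjusted p = 0.000353), and the mucin gene Muc2 was called lower: it was listed at 0 in all exMidgut libraries and stood at 5.29, 2.91, 4.63 and 3.18 TPM in emMidgut (adjusted p = 0.0118).

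Of 48 tested genes named Gm on chromosome 14, 13 were called lower and none higher (median -1.38), and the called ones lay between 3412614 and 7568566 on mm10. Of 46 such genes on chromosome 2, 6 were called higher and none lower (median 0.53), between 176141591 and 177770472. Over all genes tested 1.35% were called lower and 1.23% higher, with a median of -0.04. Cwc22, a splicing factor gene, stood at 206, 428, 212 and 309.6 TPM against 23.5, 11.1, 32.1 and 33.4 TPM (3.53 ± 0.31, adjusted p = 9.32e-06) in the midgut and at a difference of 3.30 in the hindgut. Strain changes together with origin here, and they cannot be told apart.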
